A study of Homo sapiens with 6 samples.

Results

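The outer 15 Mb of the short arm of chromosome 11 (0 to 15 Mb, hg19) held 1791 of the 248031 accessible regions found in 6 ATAC-seq libraries of U2OS cells, an established human osteosarcoma line. The genotypes were a CRAMP1 knockout (CRAMP1-KO, 3 libraries) and wild type (WT, 3 libraries), with no treatment named for either. A region is a set of peaks from the 6 deposited lists that overlap by at least 1 bp, and a member is a region whose midpoint lies in the 15 Mb. The block was chosen by the share of peaks and the summit signal in CRAMP1-KO against WT, both lower there in an earlier look at these lists. Every difference between the genotypes inside it is therefore a description: counts of limma calls there are printed beside the share over all chromosomes, and nothing is read from them. The next 35 Mb of the arm (15 to 50 Mb, 2488 regions) served for comparison. Whether the CRAMP1-KO cells were 1 clone, and whether the replicates were separate cultures, was not stated in the labels, so the spread between libraries may be technical.

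ATAC-seq uses a transposase that cuts DNA where nucleosomes leave it exposed, and peaks of cuts mark promoters, enhancers and insulators. CRAMP1 is known as a factor that helps express the linker histone H1 genes, and H1 binds where DNA enters and leaves the nucleosome and favours compact chromatin. The distal short arm of chromosome 11 begins, from the chromosome end, with gene-dense chromatin that includes imprinted growth genes such as IGF2 and CDKN1C. It continues through the beta-globin cluster and a large array of olfactory receptor genes, which are largely silent outside blood and the nose, and then through housekeeping genes set among gene-poor stretches.

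Promoter sequences of 4 block genes are shown so that the sites described further on can be seen as DNA: NUP98 and FAR1 have the strongest sites near a listed gene, AP2A2 has the lowest shift of the listed promoters after KCNQ1, and ADM the smallest difference between the genotypes. Each runs from 250 bases before to 50 bases after the RefSeq start (GRCh38.p14), on the strand of the gene, and capitals mark CCAAT boxes read on either strand. The windows lie at chr11:3797497-3797796 on the minus strand for NUP98, and on the plus strand at chr11:13668418-13668717 for FAR1, chr11:925620-925919 for AP2A2 and chr11:10304823-10305122 for ADM.
NUP98: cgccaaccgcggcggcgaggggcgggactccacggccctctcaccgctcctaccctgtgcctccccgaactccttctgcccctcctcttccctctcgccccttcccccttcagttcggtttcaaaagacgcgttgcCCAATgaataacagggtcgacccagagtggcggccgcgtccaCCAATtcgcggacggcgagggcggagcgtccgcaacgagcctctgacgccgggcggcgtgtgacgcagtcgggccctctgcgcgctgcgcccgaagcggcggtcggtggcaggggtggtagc
FAR1: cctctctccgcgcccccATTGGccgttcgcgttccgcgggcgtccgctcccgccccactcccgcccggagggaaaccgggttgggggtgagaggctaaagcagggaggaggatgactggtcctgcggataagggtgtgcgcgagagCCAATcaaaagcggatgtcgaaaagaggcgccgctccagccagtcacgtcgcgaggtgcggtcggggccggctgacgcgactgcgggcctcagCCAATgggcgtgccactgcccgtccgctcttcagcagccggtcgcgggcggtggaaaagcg
AP2A2: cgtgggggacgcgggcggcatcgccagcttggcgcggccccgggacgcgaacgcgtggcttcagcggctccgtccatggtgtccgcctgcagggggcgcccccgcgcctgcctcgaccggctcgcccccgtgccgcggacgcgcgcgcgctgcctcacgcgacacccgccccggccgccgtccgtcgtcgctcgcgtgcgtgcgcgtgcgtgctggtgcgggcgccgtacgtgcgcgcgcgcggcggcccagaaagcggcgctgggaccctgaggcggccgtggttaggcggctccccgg
ADM: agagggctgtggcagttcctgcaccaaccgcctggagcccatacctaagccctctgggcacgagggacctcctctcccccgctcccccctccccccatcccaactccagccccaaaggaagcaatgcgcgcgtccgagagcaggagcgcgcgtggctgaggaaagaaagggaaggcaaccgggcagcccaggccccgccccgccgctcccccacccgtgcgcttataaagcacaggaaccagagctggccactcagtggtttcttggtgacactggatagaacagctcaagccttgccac
The NUP98 window holds 2 CCAAT boxes and the FAR1 window 3, while AP2A2 and ADM hold none. The motifs searched, each on both strands, were the CCAAT box, the AP-1 site (TGANTCA) and an ETS core (CCGGAAG). The first was found in 34.6% of the 26 block promoters that could be matched to RefSeq and in 35.7% of all 27195 promoters. TGANTCA was found in 3.85% and 7.73% of the same promoters, and CCGGAAG in 15.4% and 10.7%.

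The lists held 133756, 139242 and 157997 peaks in CRAMP1-KO replicates 1, 2 and 3, and 198875, 151646 and 132686 in WT replicates 1, 2 and 3. WT replicate 1 had the longest list and the lowest median fold enrichment over background, 4.25, against 5.96 to 6.26 in the others. The median pileup over the 92505 regions with a peak in all 6 libraries, which tracks depth, was 61, 62 and 96 fragments in CRAMP1-KO and 97, 87 and 53 in WT, so depth did not order the genotypes. Checked against the labelled line, the start of CD44, a surface receptor of mesenchymal cells, was open in all 6 libraries, and no site lay at the start of SPI1, INS or PTH, which belong to blood, islet and parathyroid cells. The start of LMO2, a blood regulator, did carry a site in all 6 libraries. The window of the beta-globin cluster, also a blood locus, held sites with a peak in all 6 libraries too, described further on.

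Fewer members were detected in the knockout. A peak was present at 796, 856 and 952 members in CRAMP1-KO replicates 1, 2 and 3, and at 1450, 1165 and 990 members in WT replicates 1, 2 and 3. The lowest WT library stood just above the highest CRAMP1-KO library, and WT replicate 1 far above all others. Over all regions the counts were 131380, 136028 and 155477 in CRAMP1-KO and 191928, 147837 and 127337 in WT, so there the groups overlapped. Of the 1791 members, 636 (35.5%) had a peak in all 6 libraries, against 37.3% of all regions. Another 611 were found in 1 library, and 339 of those were in WT replicate 1.

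Members with a peak in every library of one genotype and in none of the other were one-sided. CRAMP1-KO had 1 such member (0.0558%; over all regions 0.767% met this rule) and WT had 54 (3.02%; over all regions 1.14%). Between 15 and 50 Mb the counts were 15 in CRAMP1-KO and 42 in WT. The 54 WT members were spread over all 15 of the 1-Mb bins, with 22 of them in the outermost 3 Mb, and were of ordinary width for the block, at a median of 455 bp (191 to 1485 bp) against 421 bp for all members. Most were weak in the libraries that had them, with a median deposited −log10 q of 5.47 (2.06 to 31.3).

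The WT-only site with the highest −log10 q lay at 2677413 to 2677770, with a pileup of 61, 46 and 30 fragments in WT replicates 1, 2 and 3. The next was a narrow site at 13279678 to 13279880, with 102, 77 and 46 fragments in the same libraries. Another lay at 14096717 to 14097023, with 48, 40 and 32 fragments. In each, the pileups followed the depth of the libraries. The single CRAMP1-KO-only site, at 9596581 to 9597061, had pileups of 43, 52 and 65 fragments and a median −log10 q of 5.91. It lies just past the promoter site of WEE1, the kinase that holds entry into mitosis, which ends at 9595998 and was open in all 6 libraries.

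Peaks in the block were a smaller part of each CRAMP1-KO list. The block held 0.610%, 0.634% and 0.615% of the peaks in CRAMP1-KO replicates 1, 2 and 3 (816, 883 and 971 peaks), and 0.758%, 0.791% and 0.786% in WT replicates 1, 2 and 3 (1507, 1199 and 1043 peaks). The groups did not overlap, and their means were 0.620 ± 0.0128% in CRAMP1-KO and 0.778 ± 0.0178% in WT (SD, n = 3 each). From 15 to 50 Mb the share was 0.990% in CRAMP1-KO and 1.04% in WT.

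Per 1-Mb bin, the log2 ratio of shares was below 0 in all 15 bins of the block, from -0.61 to -0.09 with a median of -0.29. With limma and Benjamini-Hochberg adjustment over the 2828 bins of all chromosomes, 6.75% were called lower in CRAMP1-KO and 18.1% higher, at an adjusted p of 0.05. Inside the block 11 of 15 bins were called lower and 0 higher, a count that the choice of the block itself favours and that was 7 without CRAMP1-KO replicate 1 and 6 without replicate 3 of that genotype. The bin from 1 to 2 Mb was lowest, with 67, 72 and 91 peaks in CRAMP1-KO and 161, 130 and 102 in WT. The 4 bins not called were those from 4 to 5, 5 to 6, 6 to 7 and 14 to 15 Mb, and the first of these held only 20, 24 and 25 peaks in CRAMP1-KO and 35, 24 and 24 in WT. Between 15 and 50 Mb, 5 of 34 bins were called lower and 6 higher, and 17 were below 0.

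**Figure D1:**
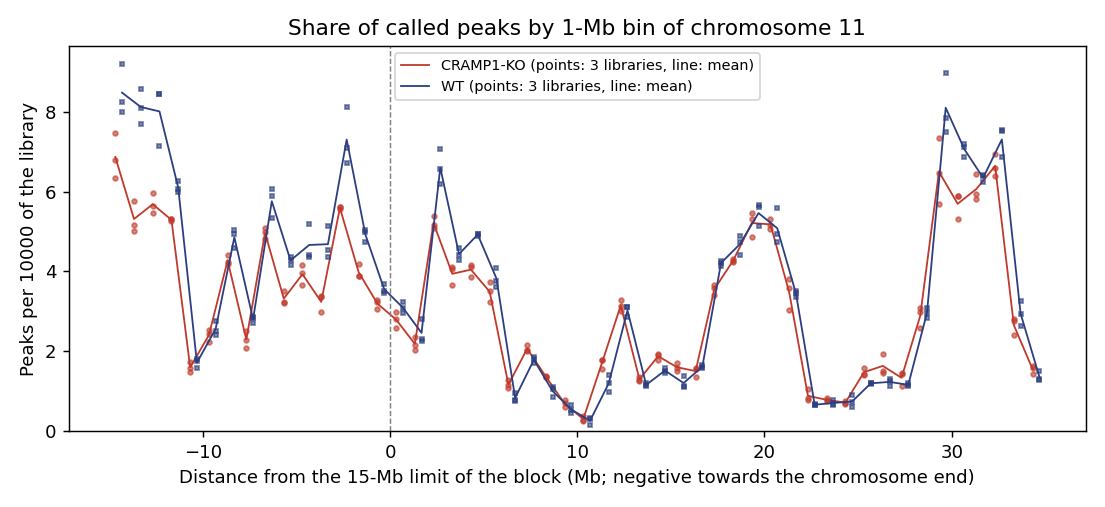
Share of each library's peaks in 1-Mb bins of chromosome 11 (peaks per 10000), against distance from the 15-Mb limit in Mb, negative towards the chromosome end; points are single libraries and lines the means of CRAMP1-KO (3) and WT (3). The CRAMP1-KO line lies under the WT line in all 15 bins left of the dashed limit and on either side of it to the right.

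Shared sites, those with a peak in all 6 libraries, were compared by signal, which leaves out sites lost in either genotype, such as the 54 WT-only members. The pileup at each summit was divided by the library's median over all 92505 shared sites, and values are given on the log2 scale as relative pileup. The median over the 636 shared members was -0.07, -0.07 and -0.19 in CRAMP1-KO replicates 1, 2 and 3, and 0.32, 0.35 and 0.32 in WT replicates 1, 2 and 3. The block thus stood above the library median in each WT library and below it in each CRAMP1-KO library. The means were -0.11 ± 0.07 in CRAMP1-KO and 0.33 ± 0.02 in WT (SD, n = 3 each), a difference of -0.44, so that the typical site had 0.736 times the WT level. In libraries of many cells, fewer cells with an open site and fewer cuts per cell cannot be told apart.

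The difference was carried by most members. Of the 636, 574 (90.3%) were below 0, against 58.7% of all shared regions and 67.6% of the 959 between 15 and 50 Mb. The middle of the distribution, between its lower and upper quartile, ran from -0.62 to -0.23. Every CRAMP1-KO library was below every WT library at 398 members, and 23.7% of all shared regions met that rule. With limma over all 92505 shared regions, 15.5% were called lower in CRAMP1-KO and 9.35% higher, a balance that turned, to 7615 lower and 13879 higher, when libraries were scaled to 15 to 50 Mb. The block held 373 lower and 3 higher calls. When fold enrichment was fitted, the block held 35 lower and 6 higher, and all 92505 shared regions held 2723 and 3750. Since the same contrast chose the block, nothing is read from these counts. From 15 to 50 Mb the relative pileup was -0.11 ± 0.01 in CRAMP1-KO and -0.02 ± 0.01 in WT, a difference of -0.10.

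The local background set for the sites was lower in CRAMP1-KO too. The local background that the peak caller set against each summit can be solved from the deposited values, and over the 636 members its relative level was -0.01 ± 0.02 in CRAMP1-KO and 0.43 ± 0.04 in WT, a difference of -0.44. The background was lower in CRAMP1-KO at 629 of 636 members. Fold enrichment, the deposited ratio of pileup to background, therefore differed less, by -0.10 over the block and by -0.02 from 15 to 50 Mb. Pileup and background were solved from the same deposited values, and whether the background includes a peak's own fragments is not given. Their agreement may thus be partly built in. The lists hold no measure of DNA copy number, so its part in a shift shared by sites and background was not tested.

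The difference in pileup did not end at the 15-Mb limit. A single step fitted by least squares to the shifts of shared sites from 0 to 50 Mb was placed at 20.17 Mb, with a mean shift of -0.39 over the 831 sites before it and -0.09 over the 764 after it. It explained 17% of the variance between sites. When the search ended at 30 Mb the step stayed in place, and the mean shift of the 143 sites after it was 0.08. Each CRAMP1-KO library against the WT mean placed the step within a narrow stretch, at 19.97, 20.18 and 20.15 Mb for replicates 1, 2 and 3. These fits share the same WT mean, so their closeness is partly built in. With fold enrichment in place of pileup, the step was placed at 14.93 Mb. The 183 shared sites from 15 to 20 Mb had a relative pileup of -0.11 in CRAMP1-KO and 0.11 in WT, a difference of -0.22, against -0.06 for the 776 sites from 20 to 50 Mb. The latter value joins bins of both directions, such as 0.49 from 21 to 22 Mb, 0.51 from 41 to 42 Mb and -0.35 from 45 to 46 Mb. Bins from 15 to 20 Mb were uneven too. The lowest of them was -0.40 from 19 to 20 Mb, where every CRAMP1-KO library lay below every WT library.

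Next to the limit, bins and single sites gave different pictures. The 34 shared sites from 14 to 15 Mb differed by -0.48 with no overlap, and the 29 from 15 to 16 Mb by 0.03. The last member inside, at 14996131 to 14996715, had a relative level of 0.672, 0.710 and 0.740 times the library median in CRAMP1-KO and 0.866, 0.816 and 0.604 times in WT, a log2 shift of -0.09 with overlapping groups. The first site outside, at 15002167 to 15002779, had 0.902, 0.790 and 0.865 times in CRAMP1-KO and 1.28, 1.16 and 1.25 times in WT, a shift of -0.53 with no overlap.

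Inside the block the difference was steepest at the chromosome end. A step searched within 0 to 15 Mb was placed at 2.87 Mb, with a mean shift of -0.65 over the 160 sites before it and -0.35 over the 476 after it. The 3 CRAMP1-KO libraries, each against the same WT mean, placed it at 2.93, 2.87 and 2.87 Mb. From 0 to 3 Mb the relative pileup was -0.20 in CRAMP1-KO and 0.47 in WT, a difference of -0.67 over 173 sites of which 168 were below 0. From 3 to 15 Mb it was -0.07 in CRAMP1-KO and 0.24 in WT, a difference of -0.31 over 463 sites. The local background had the same order, with differences of -0.59 from 0 to 3 Mb and -0.28 from 3 to 15 Mb. The bin from 2 to 3 Mb had the lowest value of all, -0.76, and the bin from 6 to 7 Mb the highest, -0.07. The median of every CRAMP1-KO library was below that of every WT library in 12 of the 15 bins, against 7 of 35 from 15 to 50 Mb and 17.3% of bins on all chromosomes, the exceptions being 4 to 5, 6 to 7 and 7 to 8 Mb.

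**Figure D2:**
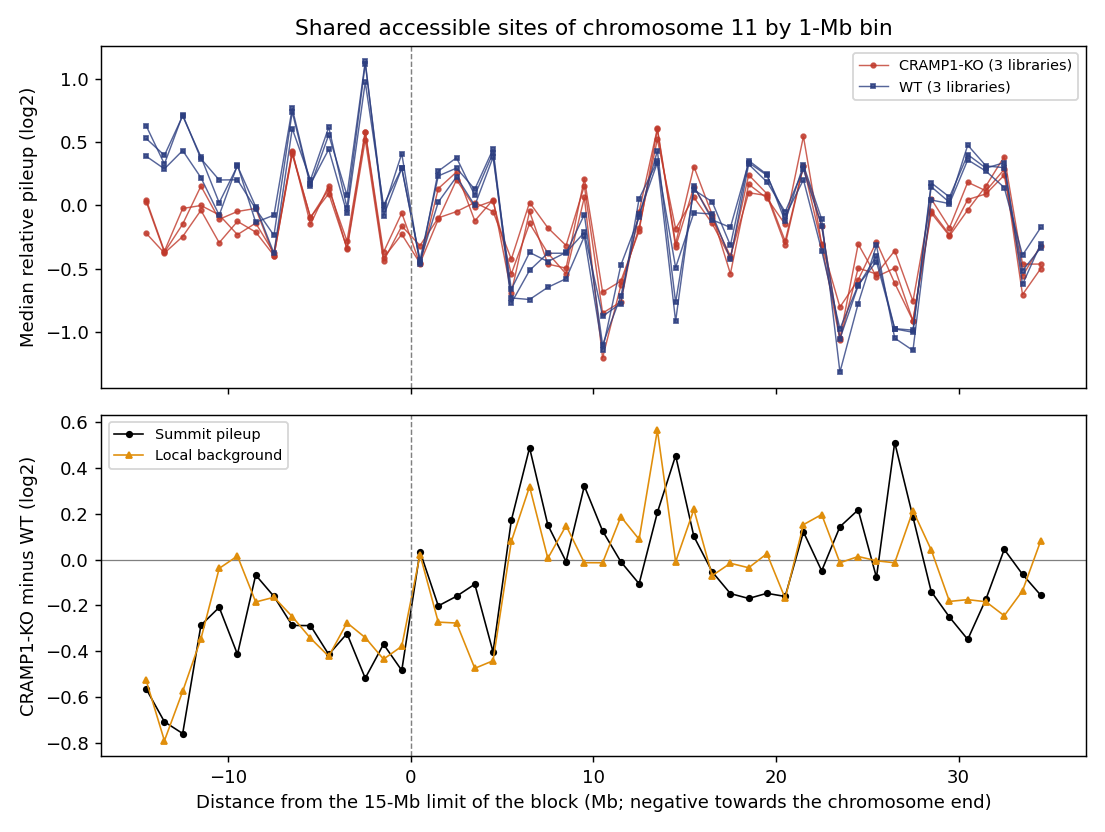
Upper panel, median relative pileup (log2) of shared sites per 1-Mb bin of chromosome 11 in each of 3 CRAMP1-KO and 3 WT libraries; lower panel, CRAMP1-KO minus WT for the summit pileup and for the local background, both against distance from the 15-Mb limit in Mb, negative towards the chromosome end. The pileup difference is near -0.6 to -0.8 in the outermost 3 bins, stays below 0 to the limit, and is still -0.40 in the fifth bin beyond it.

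Over the block taken whole, strong and weak sites differed by like amounts. When the 636 shared members were split into 4 classes of 159 by their mean pileup over all 6 libraries, with median pileups of 33.7, 63.3, 113 and 221 fragments, the differences from weakest to strongest were -0.38, -0.44, -0.47 and -0.46. The share of sites below 0 grew with strength, with 128, 141, 147 and 158 of 159. Single sites scattered more among the weak: the interquartile range of their shifts was 0.44 in the weakest class and 0.24 in the strongest. The background differed by -0.40, -0.38, -0.44 and -0.43 in the same classes.

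Outside the block the strongest sites had the lowest values, and the same held inside it from 3 to 15 Mb. From 15 to 50 Mb the classes differed by -0.04, -0.08, -0.12 and -0.21, and over all shared regions by 0.00, 0.02, -0.03 and -0.13. Within the block, the sites from 0 to 3 Mb had -0.62, -0.60, -0.73 and -0.67 from weakest to strongest. The sites from 3 to 15 Mb had -0.27, -0.32, -0.35 and -0.46. Of the 62 shared members at or above 0, 31 were in the weakest class and 1 in the strongest, and 5 of them lay in the outermost 3 Mb.

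**Figure D3:**
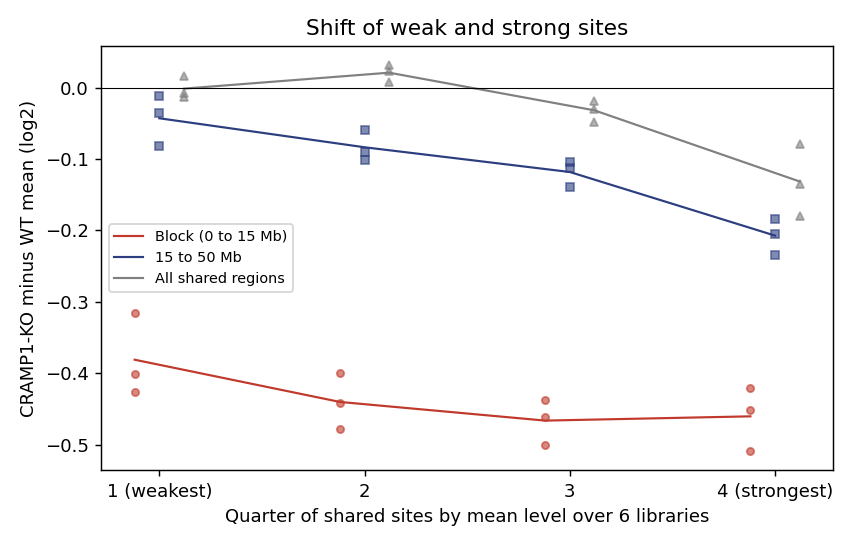
CRAMP1-KO minus WT difference in median relative pileup (log2) for 4 equal classes of shared sites from weakest to strongest; points are single CRAMP1-KO libraries minus the WT mean and lines join the means, for the block, for 15 to 50 Mb and for all shared regions. The block lies between -0.38 and -0.47 in every class, under the -0.21 of the strongest class from 15 to 50 Mb.

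With more neighbouring sites the difference grew in the block as a whole, but it did not grow steadily within either of its stretches. All shared regions were divided into 4 classes of similar size by the number of shared sites within 500 kb on either side, the site itself included. The classes held counts of 1 to 30, 31 to 47, 48 to 67 and 68 to 142. Taken whole, the block differed by -0.27 (63 sites), -0.36 (274 sites), -0.52 (250 sites) and -0.67 (49 sites), with no overlap between the groups of libraries in any class. On the other chromosomes the same classes differed by 0.15, 0.03, -0.06 and -0.07, so the block lay lower at each density. From 15 to 50 Mb they differed by 0.08, -0.16, -0.15 and -0.23.

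The denser classes held more of the outermost 3 Mb. From 0 to 3 Mb the order ran the other way, from -0.80 through -0.72 to -0.67 with more neighbours. From 3 to 15 Mb there was no steady order. In the class with counts of 48 to 67, the 118 sites from 0 to 3 Mb differed by -0.72 and the 132 sites from 3 to 15 Mb by -0.33. The densest sites of all, with counts of 68 to 142, differed by -0.67 from 0 to 3 Mb (36 sites) and by -0.14 from 3 to 15 Mb (13 sites), where the groups of libraries overlapped. In the class with counts of 31 to 47 the values were -0.80 over 19 sites and -0.33 over 255 sites, and all 63 sites of the sparsest class, at -0.27, lay from 3 to 15 Mb.

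**Figure D4:**
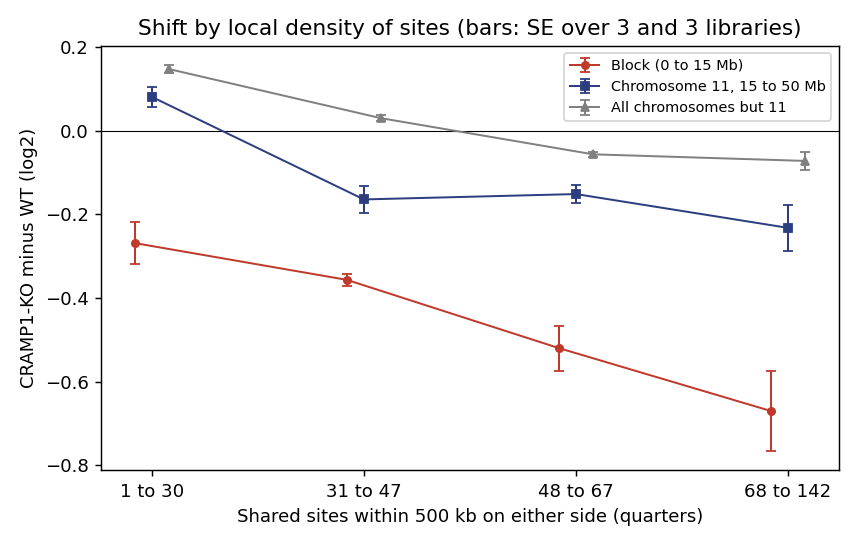
CRAMP1-KO minus WT difference in median relative pileup (log2) for 4 classes of shared sites by the number of shared sites within 500 kb (the site itself included), with bars for the standard error over 3 and 3 libraries, for the block, for 15 to 50 Mb of chromosome 11 and for all other chromosomes. The block descends from -0.27 to -0.67 and lies under the other lines in each class.

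The 5 strongest members shifted by nearly the same amount. The strongest, at 6255464 to 6256711, had 6.48, 7.26 and 5.56 times the library median in CRAMP1-KO and 7.18, 9.38 and 9.83 times in WT, a log2 shift of -0.45. CRAMP1-KO replicate 2 stood just above WT replicate 1 there, so the groups overlapped. The others had shifts of -0.40 (13237417 to 13238675), -0.49 (the NUP98 promoter), -0.42 (the FAR1 promoter) and -0.42 (12308478 to 12310531).

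The 5 lowest shifts among the 627 shared members with a mean pileup of at least 20 fragments reached well under the block's level. The lowest was -1.42 at the site from 2196737 to 2197421. Next came -1.38 for the site from 7986425 to 7987484, then -1.37 for that from 1410424 to 1411399 and -1.37 for that from 429397 to 430426, and last -1.33 (3635440 to 3636446). The site near 7.99 Mb had 0.885, 0.887 and 0.906 times the library median in CRAMP1-KO and 2.27, 2.32 and 2.38 times in WT. Its replicates were close in both genotypes, and 3 of these 5 sites lay in the outermost 3 Mb.

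The 5 highest shifts were smaller in size. The site from 6117407 to 6118240 had 0.94, followed by 0.57 (13029442 to 13030163), 0.56 (10548555 to 10549374), 0.38 (5295520 to 5296033) and 0.35 (5757751 to 5758684). The first, in the olfactory receptor stretch, had 0.967, 1.23 and 1.1 times the library median in CRAMP1-KO and 0.495, 0.621 and 0.604 times in WT, and its local background was also higher, by 0.44. The first 3 of these sites had no overlap between the groups and the other 2 did. Over the block, 9 of the 636 shared members had every CRAMP1-KO library above every WT library, against 14.4% of all shared regions.

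Promoters with a site were lower in CRAMP1-KO, as were most members of the block. Gene starts of hg19 were written by hand and kept where their distance to a listed neighbour held within 1 kb in the GRCh38.p14 gene table, which left 40 of 43 block genes. A shared site lay within 1 kb of the start of 34 of them, and all 34 shifts were below 0, with a median of -0.55. Below 0 were also 90.3% of all shared members, 158 of the 159 in the strongest class, and 58.7% of all shared regions. Only the strongest site within 1 kb was used. AP2A2, KCNQ1 and ADM had 2 regions there, so their values describe 1 site and not the whole promoter. Every CRAMP1-KO library was below every WT library at 33, the exception being FAR1. That rule was met by 398 of the 636 shared members, 132 of the 159 in the strongest class, and 23.7% of all shared regions. In the strongest class of all shared regions, 8412 of 23126 met it. The counts are thus not read as particular to promoters. No site was found at the starts of IRF7, INS, TH, ASCL2, PTH and CALCA. Among 8 genes between 15 and 50 Mb, 7 were below 0, 4 had no overlap with CRAMP1-KO lower, and the median was -0.25.

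The 11 promoters from 0 to 3 Mb had a median shift of -0.83. Among signalling and membrane genes, HRAS, the RAS-family switch, had 1.61, 1.81 and 1.57 times the library median in CRAMP1-KO and 2.79, 3.11 and 2.96 times in WT, a shift of -0.83. TOLLIP, an adaptor of Toll-like receptor signalling, averaged 0.842 ± 0.00986 in CRAMP1-KO and 1.63 ± 0.189 in WT (SD, n = 3 each). AP2A2, a subunit of the clathrin adaptor whose promoter is printed above, had 0.803, 0.742 and 0.802 times in CRAMP1-KO and 1.70, 1.23 and 1.74 times in WT, a shift of -0.98. AP2A2 and TOLLIP thus lay below the library median in CRAMP1-KO and above it in WT, while HRAS was above it in both. CD151, a tetraspanin that binds integrins, differed less, at 1.65 ± 0.219 in CRAMP1-KO and 2.37 ± 0.126 in WT.

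Metabolic genes of the same stretch gave similar values. RNH1, the cytosolic ribonuclease inhibitor, averaged 1.5 ± 0.197 in CRAMP1-KO and 2.73 ± 0.263 in WT, a shift of -0.87. TALDO1, transaldolase of the pentose phosphate pathway, shifted by -0.64, and CTSD, a lysosomal protease, by -0.91. The imprinted domain varied more. KCNQ1, a potassium channel gene, had the lowest value of the 34, with 0.492, 0.581 and 0.750 times the median in CRAMP1-KO and 1.35, 1.31 and 1.49 times in WT, a shift of -1.21. CDKN1C, an inhibitor of cyclin-dependent kinases, had 1.39, 1.73 and 1.80 times in CRAMP1-KO and 2.61, 2.75 and 2.72 times in WT. PHLDA2, a brake on placental growth, shifted by -0.44, and IGF2, a fetal growth factor, had a weak site at 0.357 ± 0.0639 in CRAMP1-KO and 0.537 ± 0.0768 in WT. None of these 4 had overlapping groups.

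The 23 promoters from 3 to 15 Mb had a median shift of -0.49. Among nuclear and cell-cycle genes, NUP98, a protein of the nuclear pore, was the most open promoter listed, with 6.10, 7.05 and 4.97 times the library median in CRAMP1-KO and 7.14, 8.77 and 9.47 times in WT. WEE1 had 4.38, 4.73 and 4.14 times in CRAMP1-KO and 5.92, 6.75 and 6.91 times in WT, a shift of -0.56. CTR9, a subunit of the PAF1 elongation complex, differed most among these, at 2.64 ± 0.188 in CRAMP1-KO and 4.35 ± 0.308 in WT, a shift of -0.72. NAP1L4, a histone chaperone, shifted by -0.52 and RRM1, the large subunit of ribonucleotide reductase, by -0.44.

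Translation and trafficking genes gave a similar range. RPL27A, a ribosomal protein, had 2.03, 2.11 and 2.10 times in CRAMP1-KO and 3.59, 3.25 and 3.32 times in WT, a shift of -0.70. EIF4G2, a translation initiation factor, shifted by -0.47, and COPB1, a coatomer subunit, by -0.43. The lysosomal enzymes TPP1 and SMPD1 shifted by -0.68 and -0.61. FAR1, a peroxisomal fatty acyl-CoA reductase, had 5.95, 6.69 and 4.79 times in CRAMP1-KO and 6.42, 8.14 and 8.70 times in WT, where CRAMP1-KO replicate 2 lay above WT replicate 1.

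Regulators and signalling genes completed the list. TEAD1, the DNA-binding partner of YAP, averaged 1.95 ± 0.115 in CRAMP1-KO and 3.11 ± 0.235 in WT, a shift of -0.67. ARNTL, the circadian factor also called BMAL1, shifted by -0.49. STIM1, the calcium sensor of the endoplasmic reticulum, shifted by -0.35, ILK, named integrin-linked kinase, by -0.54, and DKK3, a secreted Dickkopf protein, by -0.33. The cell-surface receptor CCKBR shifted by -0.40, the actin-binding SWAP70 by -0.50, AKIP1, a partner of protein kinase A, by -0.58, and the BTB-domain gene BTBD10 by -0.61. ADM, which encodes the vasodilator adrenomedullin, had the smallest difference, with 2.59, 2.5 and 2.30 times in CRAMP1-KO and 2.67, 3.00 and 2.64 times in WT, a shift of -0.17. Its groups came close but did not overlap.

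**Figure D5:**
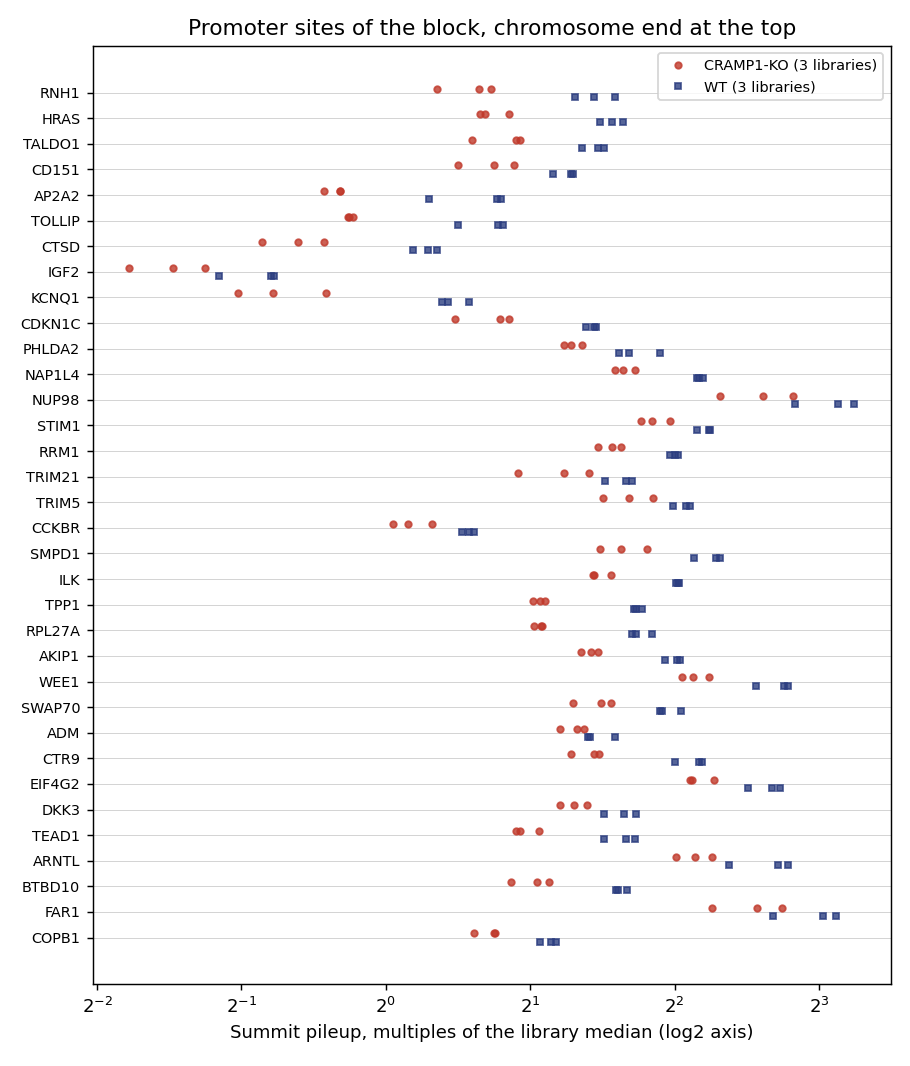
Summit pileup at the strongest site within 1 kb of 34 block gene starts, in multiples of the library median on a log2 axis, with the chromosome end at the top. Circles are 3 CRAMP1-KO libraries and squares 3 WT libraries. CRAMP1-KO lies to the left of WT in every row apart from FAR1, where the groups overlap, and the gap is widest at KCNQ1.

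The stretch from 4.3 to 6.3 Mb, which holds the beta-globin cluster and the olfactory receptor array, was sparse in sites. Its median pileup differed about as much as that of the stretches beside it, but by other measures it differed less. By the genes listed for GRCh38.p14, 54 of the 71 protein-coding genes between TRIM21 and CCKBR, near its ends, are olfactory receptors. It held 116 members, of which 38 were shared. Its relative pileup was -0.23, -0.05 and -0.19 in CRAMP1-KO replicates 1, 2 and 3 and 0.07, 0.13 and 0.14 in WT replicates 1, 2 and 3, a difference of -0.27 without overlap. The stretches on either side differed by -0.29 (3 to 4.3 Mb, 60 sites) and -0.30 (6.3 to 15 Mb, 365 sites), and the rest of the block, with the outermost 3 Mb, by -0.47. Taken site by site, the median shift was -0.24 in the stretch, against -0.33 and -0.37 on either side. Of the 38 sites, 31 were below 0, 16 had every CRAMP1-KO library below every WT library, and 15 were called lower and 1 higher, beside 23.7%, 15.5% and 9.35% of all shared regions. These counts come from the contrast that chose the block.

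The local background of the stretch differed by only -0.13, against -0.36 from 3 to 4.3 Mb and -0.31 from 6.3 to 15 Mb. Of the background values in the stretch, 38.6% were at the lowest level the peak caller allows, against 13.9% in the block as a whole. This limits how far they could differ. The share of all peaks in the stretch was 0.0431% in CRAMP1-KO and 0.0456% in WT, with 0.042%, 0.043% and 0.044% in the CRAMP1-KO libraries and 0.047%, 0.046% and 0.044% in the WT libraries. The highest CRAMP1-KO library thus came close to the lowest WT library. The log2 ratio of shares was -0.08, against -0.21 from 3 to 4.3 Mb and -0.30 from 6.3 to 15 Mb.

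The strongest site of the stretch was that at 6255464 to 6256711, described above, and 2 more of its 5 strongest were promoters of TRIM genes. TRIM21, an antibody receptor that marks bound virus for destruction, had 1.89, 2.35 and 2.65 times the library median in CRAMP1-KO and 2.87, 3.16 and 3.26 times in WT, a shift of -0.44. TRIM5, a restriction factor of retroviruses, averaged 3.22 ± 0.390 in CRAMP1-KO and 4.16 ± 0.173 in WT, a shift of -0.38. Both kept their groups apart. The sites at 4629026 to 4629888 and 4513984 to 4514751 shifted by -0.25 and -0.17 with overlapping groups.

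The beta-globin window held 8 regions, of which 2 were shared. The stronger, at 5301815 to 5302274, had 2.25, 2.32 and 1.73 times the library median in CRAMP1-KO and 2.59, 2.46 and 3.15 times in WT, a shift of -0.38. The weaker, at 5295520 to 5296033, had 0.246, 0.468 and 0.396 times in CRAMP1-KO and 0.351, 0.241 and 0.245 times in WT, a shift of 0.38 with overlapping groups. The pair thus moved in opposite directions, and the remaining 6 regions were detected in 1 to 3 libraries each.

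Some features of the block were compared with another stretch inside each of the 6 libraries, not between genotypes. Peak counts, which the choice of the block also used, are among them. The block was denser in peaks than 15 to 50 Mb, with 71.3 ± 16.8 against 44.3 ± 7.77 peaks per Mb (SD, n = 6), higher in 6 of 6 libraries. Its peaks were wider, at a median of 468 ± 66.0 bp against 425.75 ± 53.5 bp, in 6 of 6 libraries. They covered 4.3 ± 0.663% of bases against 2.34 ± 0.296%, also in 6 of 6. Median fold enrichment was lower in 6 of 6 libraries, at 5.86 ± 0.946 in the block and 6.3 ± 0.897 from 15 to 50 Mb. The stretch from 4.3 to 6.3 Mb had 33.9 ± 6.78 peaks per Mb against 77.1 ± 18.4 in the rest of the block, lower in 6 of 6 libraries. Each of these 5 comparisons had a two-sided exact sign-flip p of 0.031, the smallest that 6 libraries can give, and a Benjamini-Hochberg adjusted p of 0.031. All libraries come from 1 line, where a difference between fixed segments would be likely to recur in each. The p therefore shows only that the direction repeated. At shared members the peak width did not separate the genotypes, at 661.5, 651 and 733 bp in CRAMP1-KO and 703.5, 693.5 and 591.5 bp in WT.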

How the data were processed

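ATAC-seq was run on 3 CRAMP1-KO and 3 WT libraries of U2OS cells, from 50000 cells each with 30 min of tagmentation and 7 PCR cycles, per the labels' protocols. Per the submitters' processing notes, the tools were bcl2fastq 2.20.0, cutadapt 3.4, BWA 0.7.17-r1188 and MACS3, with hg19. The sources used here do not give MACS3 settings, duplicate handling or any transposase shift. Each library has 1 deposited peak list of its own, without pooling and without read counts, so total depth is unknown. The deposited fold enrichment is a ratio of summit pileup to local background. The deposited −log10 p and −log10 q rate each peak against that background, and the deposited score, 10 times −log10 q as a whole number, was not used. q was at most 0.05 in every list.

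Pileup and background were solved at each summit from fold enrichment (with 1 added to both) and the Poisson −log10 p. All peaks gave a whole pileup within a relative tolerance of 0.0001, and the solver was tested on simulated peaks. Shared regions and 1-Mb bins (mean of at least 5 peaks, pseudocount 0.5) were fitted on all chromosomes with limma 3.58.1 (R 4.3.3), log2 values, a variance trend, two-sided, Benjamini-Hochberg threshold 0.05. The rest was done in Python 3.11.15 with pandas 2.3.3, numpy 2.4.6, scipy 1.17.1 and matplotlib 3.10.9. The members, gene list and tests were chosen with earlier results of these data known. Regions named were the 5 strongest shared members, the 5 lowest and 5 highest shifts, up to 3 genotype-only members each by −log10 q, those at the limit, and the 5 strongest from 4.3 to 6.3 Mb, plus all regions of the beta-globin window. Genes were named whatever their values, and DEAF1, H19, RRAS2, TPH1, HSD17B12 and RUNX2 were left out because their spacing did not hold or could not be checked. Coordinates are hg19, counted from 1, except the RefSeq promoters. Alternatives were other scalings, quantities, q limits, overlaps, bin sizes, a replicate block, and fits that left 1 library out.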

Additional observations from a re-analysis of the deposited data

How the results depend on the processing

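The shift of the block stayed below 0 under every alternative run. Against the main -0.44 it was -0.34 when scaled to 15 to 50 Mb of chromosome 11 and -0.10 as fold enrichment, and in splits chosen after seeing the data it was -0.67 from 0 to 3 Mb, -0.31 from 3 to 15 Mb, and -0.27, -0.36, -0.52 and -0.67 from the sparsest to the densest class of sites. Block minus 15 to 50 Mb was -0.34, and -0.0823 as fold enrichment. Strongest minus weakest class, by pileup, was -0.08, against -0.03 for the background and -0.05 for fold enrichment. The 4.3 to 6.3 Mb shift of -0.27 became -0.17 when scaled to 15 to 50 Mb, -0.13 for the background and -0.0842 as fold enrichment. The step at 20.17 Mb fell at 19.99 Mb for the background and at 14.93 Mb for fold enrichment. The cause of these changes was not tested. Members called lower numbered 373, 35 as fold enrichment and 304 without the variance trend (chosen after seeing the data). Members called higher numbered 3, but 6 when scaled to 15 to 50 Mb, 1 for the background and 6 as fold enrichment. Over all shared regions 14358 were called lower and 8651 higher, against 7615 and 13879 when scaled to 15 to 50 Mb, 7710 and 8107 for the background, 2723 and 3750 as fold enrichment, and 9037 and 6785 without the trend. Bins of the block called lower numbered 11 of 15, 6 of 7 with 2-Mb bins and 14 of 30 with 500-kb bins. On all chromosomes, 146 of 1449 bins were called lower with 2-Mb bins and 215 of 5223 with 500-kb bins. Over all bins 191 were called lower and 513 higher, against 384 and 359 when scaled to the median bin, 107 and 329 with lists of equal length and 90 and 521 without the trend. The share of peaks in the block differed by -0.159 percentage points, by -0.143 with lists of equal length and by -0.117 at −log10 q of at least 10.

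Leaving out 1 library in turn gave ranges of -0.46 to -0.40 for the block shift, -0.37 to -0.31 for block minus 15 to 50 Mb, -0.33 to -0.24 for 4.3 to 6.3 Mb, -0.13 to -0.03 for strongest minus weakest, 20.15 to 20.17 Mb for the step and -0.169 to -0.152 percentage points for the share. Members called lower ranged from 311 to 368 and higher from 1 (without WT replicate 2) to 3. Bins of the block called lower ranged from 6 to 12, 7 when CRAMP1-KO replicate 1 was left out and 6 when replicate 3 was. All regions ranged from 9130 (without WT replicate 2) to 14878 lower and 6150 to 7596 higher, and all bins from 82 to 255 lower and 246 to 623 higher, with 82 and 246 without CRAMP1-KO replicate 2. The segment comparisons kept their direction, at 24.1 to 29.2 peaks per Mb, 39.5 to 46.3 bp, 1.82 to 2.05% of bases, -0.50 to -0.37 in fold enrichment and -45.7 to -39.3 peaks per Mb for the 4.3 to 6.3 Mb stretch. With 5 libraries the smallest exact sign-flip p is 0.0625, so none can pass the threshold. Deviations of libraries with the same number correlated at 0.06, 0.06 and -0.09 over shared regions, so the numbers do not pair them. With a replicate block, 371 members were called lower and 3 higher, and 11 bins of the block lower.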
